A study of Mus musculus with 6 samples.

Results

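The OAS family comprises the oligoadenylate synthetases, enzymes of the antiviral defense of most cells, and their relatives. Bulk RNA-seq of mouse DRG/tumors was used to describe 8 of its genes, *Oas1a*, *Oas1b*, *Oas1c*, *Oas1g*, *Oas2*, *Oas3*, *Oasl1* and *Oasl2*, out of 24062 genes in the count tables. They were taken by symbol, and the list was drawn up with their difference between the genotypes already known, so that difference is a description: no p-value is given for these genes, and how many passed the thresholds of the fit is not evidence for it. The study asked which genes respond to loss of the transcription factors RUNX1 and RUNX3 in neurofibroma, a benign nerve tumor that forms when Schwann cells (SCs) lose *Nf1*. Libraries came from 6 mice of the C57BL/6-I129 background, 3 labelled Nf1fl/fl;DhhCre and 3 labelled Rx1flfl;Rx3fl/fl;DhhCre, called double knockout here. According to the extraction protocol the second group also carried Nf1fl/fl, which its genotype label leaves out, so that both groups had floxed *Nf1* and DhhCre and differed in the floxed *Runx1* and *Runx3*. Cre under the *Dhh* promoter acts in the SC lineage, and the other cells of the tissue keep intact copies of the floxed genes. The labels give the tissue as dorsal root ganglion (DRG) for the first group and as neurofibroma tumor for the second, whereas the protocol names DRG/tumors for both. Age was not given in the sources used here.

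Oligoadenylate synthetases bind double-stranded RNA, a sign of viral infection, and then join ATP into short chains of adenylate. These chains act as a messenger inside the infected cell and lead to a stop of protein synthesis. Most genes of the family are weakly active at rest and are induced by interferons through factors that include STAT2 and IRF9, which bind the interferon-stimulated response element in their promoters.

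All 8 genes lie on mouse chromosome 5 (GRCm38, gene models of GENCODE M21), in 2 groups. *Oasl2* (chr5:114896936-114912234, plus strand) and *Oasl1* (chr5:114923240-114937915, plus strand) stand side by side. *Oas2* (chr5:120730333-120749853, minus strand), *Oas3* (chr5:120753098-120777661, minus strand), *Oas1c* (chr5:120800194-120812514, minus strand), *Oas1b* (chr5:120812635-120824163, plus strand), *Oas1g* (chr5:120876142-120887613, minus strand) and *Oas1a* (chr5:120896256-120907521, minus strand) share the other group with *Oas1d*, *Oas1e*, *Oas1f* and *Oas1h*. *Oas1c* and *Oas1b* point away from each other with 120 bases between them. The annotation lists *Oas1b* as a polymorphic pseudogene and the other 7 as protein coding.

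Promoter windows of RefSeq (GRCm38.p6, 250 bases before to 50 after the start) were at hand for 6 of the 8 genes, with none for *Oas1b* and *Oas2*. Each window was searched on both strands for the core of the interferon-stimulated response element (GAAA, any 2 bases and GAAA again), for the gamma-activated site of the interferon gamma response (TTCNNNGAA) and for the core of the RUNX binding site (TGTGG). The stretches below were chosen because they hold these letters in genes whose levels are described next, and the capitals mark the matched bases, with overlapping matches run together. Each is read 5′ to 3′ on the strand of its gene.
Oas1a, chr5:120907526-120907565, minus strand: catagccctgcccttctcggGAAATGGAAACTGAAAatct
Oas1g, chr5:120887614-120887651, minus strand: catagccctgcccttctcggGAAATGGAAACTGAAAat
Oas1c, chr5:120812593-120812648, minus strand: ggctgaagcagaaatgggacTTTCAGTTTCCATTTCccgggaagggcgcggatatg
Oas3, chr5:120777705-120777754, minus strand: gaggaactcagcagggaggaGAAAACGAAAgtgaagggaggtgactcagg
Oasl2, chr5:114896808-114896861, plus strand: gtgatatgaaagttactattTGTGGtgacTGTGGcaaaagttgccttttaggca

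The response element core occurred in 4 of the 6 windows (*Oas1a*, *Oas1c*, *Oas1g* and *Oas3*), against 3.44% of all 32851 windows of the same length. *Oas1a* and *Oas1g* held the same 16-base run of a pair of overlapping cores, which began 20 bases before the start of *Oas1a* and 18 bases before that of *Oas1g*. The same run stood in the *Oas1c* window on the opposite strand, at chr5:120812613-120812628, in the space between *Oas1c* and *Oas1b*. It began 114 bases before the start of *Oas1c* and ended 7 bases before the annotated start of *Oas1b*, in the reading direction of *Oas1b*. The single core of *Oas3* began 75 bases before its start. The gamma-activated site matched in *Oas1a* only, 98 bases before the start (8.30% of all windows), and the RUNX core matched in *Oasl2* only, with both matches 106 and 97 bases before the start (55.9% of all windows). The *Oasl1* window held none of the 3 motifs. A match of letters describes the sequence and was not tested for binding.

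The depth and the tissue bear on all values. Between 12439296 and 16682194 reads were assigned to genes per library. Levels are given as CPM, read counts divided by a library size corrected by TMM, in which 3 counts made between 0.179 and 0.247 CPM. *Runx1* had 131, 141 and 172 CPM in Nf1fl/fl;DhhCre against 84.0, 78.9 and 185 CPM under the double-knockout label, so it was not lower in replicate 3 of the latter. Cells outside the SC lineage keep intact copies, so the bulk level does not show whether *Runx1* was deleted in SCs. One library of that group came from another sequencing run than the other 5. The labels make it replicate 3, but the mouse numbers of replicates 2 and 3 are exchanged between labels and tables, so it may be either. *Runx3* was lower in each library labelled double knockout, with 10.3 to 13.5 CPM against 15.1 to 29.9 CPM. Muscle markers summed to 9601 CPM in replicate 2 labelled double knockout, against 28.0 and 47.7 CPM in the others of that label, and to 1179, 16.4 and 2.63 CPM in the Nf1fl/fl;DhhCre libraries. Defining markers of SCs and sensory neurons were present in all libraries. The sum of 6 neuron markers was 912 to 1795 CPM in Nf1fl/fl;DhhCre and 4500 to 10016 CPM in the double-knockout libraries. *Xist* and *Ddx3y* marked 2 females and 1 male in the first group and 1 female and 2 males in the second. In bulk tissue, fewer cells of a type and less RNA per cell cannot be told apart.

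**Figure D1:**
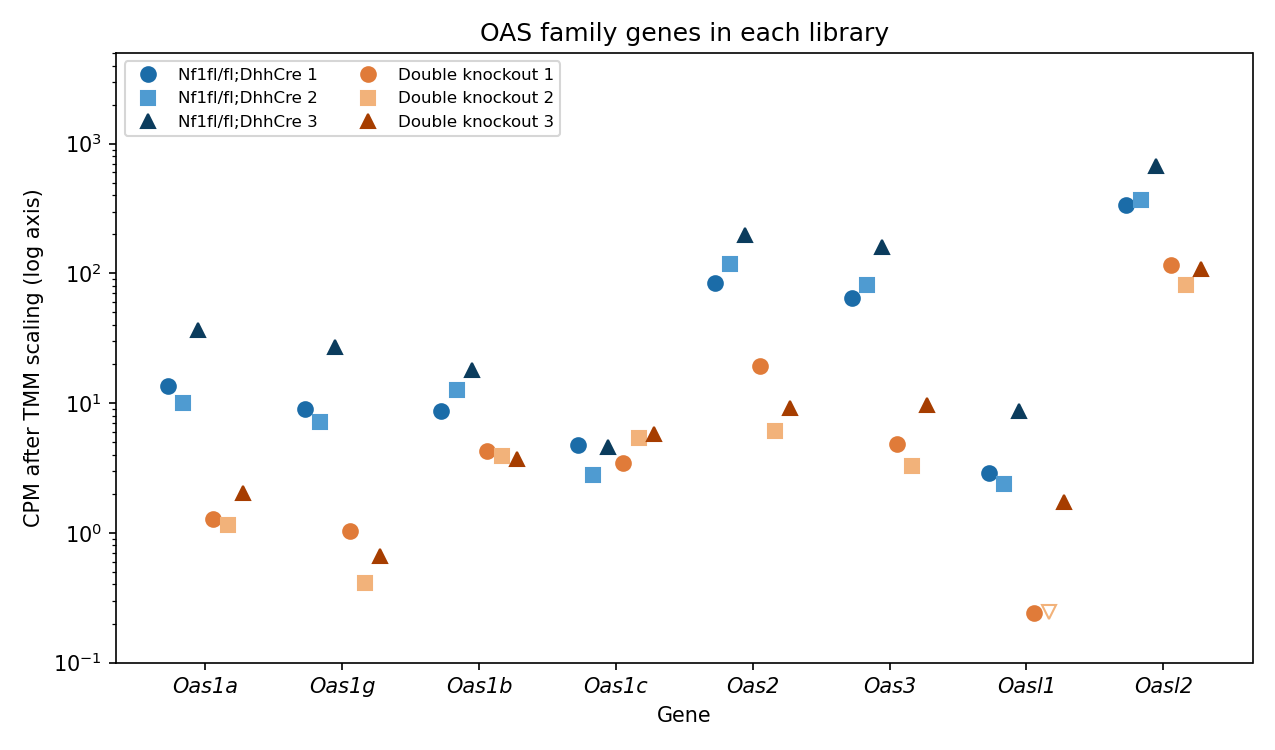
Level of each OAS gene in each of the 6 libraries, in CPM after TMM scaling on a log axis, with blue for Nf1fl/fl;DhhCre and orange for double knockout and 1 symbol per replicate. The open triangle is *Oasl1* in double-knockout replicate 2, which had 0 reads and is drawn at the value of 3 counts (0.247 CPM). In 7 genes the groups do not overlap, and in *Oas1c* they do.

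Reads of the OAS family were fewer in the double-knockout libraries. The 8 genes together reached 527, 603 and 1131 CPM in Nf1fl/fl;DhhCre against 150, 101 and 141 CPM in double knockout, which is 754 ± 329 against 131 ± 25.9 CPM (SD, n = 3 each) or 5.77-fold lower. Each double-knockout library was below each Nf1fl/fl;DhhCre library, and leaving out any 1 library kept the ratio between 4.33 and 6.64. The limma-voom fit across 15652 genes called 6 of the 8 lower (adjusted p below 0.05 and more than 2-fold) and 0 higher, where the background was 5.36% of tested genes called lower and 8.03% called higher. In 7 of the 8 all double-knockout libraries were below all Nf1fl/fl;DhhCre libraries, as for 20.5% of tested genes. Nothing is read from these shares, since the family was chosen on this contrast. The log2 fold changes ran from -4.11 to 0.29 with a median of -3.55, while the median over all tested genes was 0.02. *Oas1g* and *Oasl1* passed the filter on low counts through the Nf1fl/fl;DhhCre libraries, as each reached the minimum in 1 double-knockout library only.

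The 4 *Oas1* genes belong to the branch of the family with a single synthetase unit, and not every member of it need be an active enzyme. *Oas1a*, an active synthetase, was at 13.6, 10.1 and 36.4 CPM in Nf1fl/fl;DhhCre and at 1.28, 1.15 and 2.05 CPM in the double-knockout libraries. The groups were far apart, and Nf1fl/fl;DhhCre replicate 3 stood above the other two of its group. The log2 fold change was -3.49 (SE 0.92). *Oas1g*, its closest relative, was at 9.09, 7.15 and 27.2 CPM against 1.04, 0.411 and 0.660 CPM, which in the double-knockout libraries rested on 13, 5 and 10 reads. Its log2 fold change was -4.11 (SE 1.17), close to that of *Oas3* below and less certain. Of the 50-base stretches in the exons of *Oas1a*, 57.6% also occur in *Oas1g*, and 45.2% of those of *Oas1g* occur in *Oas1a*. How reads with several alignments were counted is not given in the sources used here, so the split of reads between the pair is uncertain.

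*Oas1b*, the flavivirus resistance gene, which is cut short by a stop codon in many laboratory strains, was at 8.67, 12.6 and 18.2 CPM in Nf1fl/fl;DhhCre. It was at 4.30, 3.95 and 3.70 CPM in the double-knockout libraries, a narrow range below all values of the other group. The log2 fold change of -1.66 (SE 0.38) was the smallest of the 6 called decreases. *Oas1c*, whose start lies next to that of *Oas1b*, was at 4.79, 2.80 and 4.55 CPM in Nf1fl/fl;DhhCre and at 3.43, 5.35 and 5.74 CPM in the double-knockout libraries. The ranges overlapped, and the log2 fold change was 0.29 (SE 0.35). *Oas1c* was the only member of the 8 with a positive estimate, from 0.07 to 0.54 when each library was left out in turn. The 2 genes that share the 120-base space and its response element core thus had unlike values between the genotypes, and the difference between them was not tested. Of the 50-base stretches of *Oas1c*, 15.1% occur in other genes, among them *Oas1d*, *Oas1e*, *Oas1f*, *Oas1h* and the antisense gene *Gm43069*, which overlaps it. *Oas2* and *Oasl1* are also overlapped by genes of the opposite strand, *Gm43068* and *Gm13822*. Whether counting used the strand is not given in the sources used here.

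*Oas2*, a synthetase with a pair of synthetase units, was at 84.3, 118 and 199 CPM in Nf1fl/fl;DhhCre and at 19.3, 6.09 and 9.24 CPM in the double-knockout libraries. The highest double-knockout value was well below the lowest of the other group, and the means were 134 ± 58.7 and 11.5 ± 6.89 CPM (SD, n = 3 each). The fitted difference was -3.61 on the log2 scale (SE 0.50). *Oas3*, the longest synthetase, was at 64.4, 81.4 and 160 CPM against 4.86, 3.29 and 9.64 CPM. The groups were again separate, with means of 102 ± 50.9 and 5.93 ± 3.31 CPM (SD, n = 3 each). The log2 fold change of *Oas3* was -4.08 (SE 0.59). Both genes shared few or no 50-base stretches with other genes (0% and 0.521%).

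The OAS-like genes carry ubiquitin-like domains behind the synthetase unit. *Oasl2*, which has kept synthetase activity in mice, was the most abundant of the 8, at 340, 369 and 678 CPM in Nf1fl/fl;DhhCre and at 115, 80.9 and 108 CPM in the double-knockout libraries. The groups were separate, and the means were 462 ± 188 and 101 ± 18.1 CPM (SD, n = 3 each). The log2 fold change was -2.13 with the smallest SE of the family, 0.29. *Oasl1*, which lacks synthetase activity and is known to hold back translation of IRF7, was among the scarcest of the 8. It was at 2.91, 2.38 and 8.66 CPM in Nf1fl/fl;DhhCre, from 42, 40 and 135 reads, and at 0.239, 0 and 1.72 CPM in the double-knockout libraries, from 3, 0 and 26 reads. A count of 0 allows up to 0.247 CPM in that library, and the groups did not overlap. The estimate of -3.73 carried the largest SE, 1.41, and did not pass the thresholds.

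**Figure D2:**
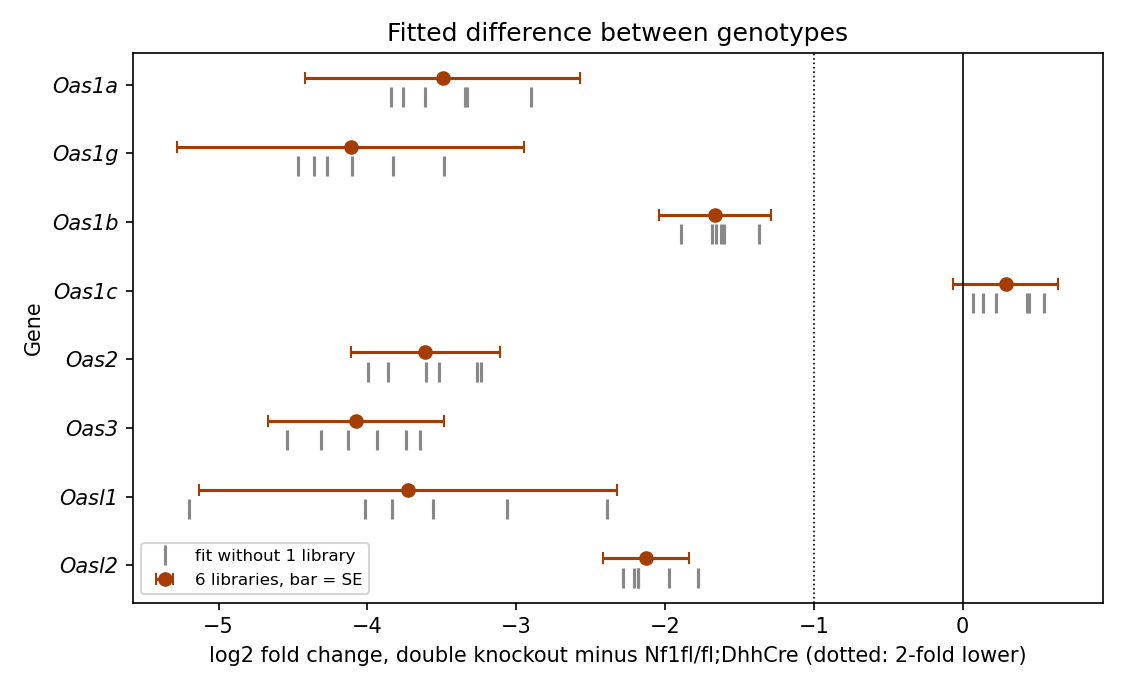
Log2 fold change of each OAS gene, double knockout minus Nf1fl/fl;DhhCre, from limma-voom with 6 libraries (points, bars are SE) and from the 6 fits that each left out 1 library (grey ticks). All ticks of 7 genes lie below -1 and all ticks of *Oas1c* lie between 0.07 and 0.54.

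The place of a library within its genotype was shared by part of the family. Replicate 3 of Nf1fl/fl;DhhCre had the highest value of its group in 7 of the 8 genes, *Oas1c* being the exception, while 34.5% of all tested genes were highest in that library. Replicate 2 labelled double knockout had the lowest value of its group in 6 of the 8 genes, against 38.3% of tested genes. *Oas1b* was lowest in replicate 3 and *Oas1c* in replicate 1 of that group. The lowest Nf1fl/fl;DhhCre value was in replicate 1 for 4 genes and in replicate 2 for 4, and the highest double-knockout value was in replicate 1 for 4 and in replicate 3 for 4. Without replicate 2, the library with the muscle markers, the log2 fold change was -3.33 for *Oas1a*, -3.83 for *Oas1g*, -1.66 for *Oas1b*, 0.22 for *Oas1c*, -3.26 for *Oas2*, -3.74 for *Oas3*, -2.39 for *Oasl1* and -1.97 for *Oasl2*. Without replicate 3, the library with high *Runx1*, it was -3.76 for *Oas1a*, -4.10 for *Oas1g*, -1.60 for *Oas1b*, 0.14 for *Oas1c*, -3.52 for *Oas2*, -4.54 for *Oas3*, -5.20 for *Oasl1* and -2.18 for *Oasl2*. One of these 2 fits holds libraries of a single sequencing run only. In both fits *Oas1b* and *Oasl2* had the smallest decreases, and *Oasl1*, which rests on few reads, moved the most. The log2 fold change without Nf1fl/fl;DhhCre replicate 3 was -2.90 for *Oas1a*, -3.49 for *Oas1g*, -1.37 for *Oas1b* and 0.43 for *Oas1c*. In that fit it was -3.24 for *Oas2*, -3.65 for *Oas3*, -3.06 for *Oasl1* and -1.78 for *Oasl2*. *Oas2*, *Oas3* and *Oasl2* were past both thresholds in each of the 6 fits on 5 libraries. *Oas1a*, *Oas1b* and *Oas1g* were past them in 2 of the 6 fits each.

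To compare levels between genes, CPM was divided by the annotated exon length in kb. On this scale *Oasl2* led in Nf1fl/fl;DhhCre with 72.5 ± 29.4 CPM per kb (SD, n = 3), followed by *Oas2* with 30.0 ± 13.2. *Oas3* came next with 14.4 ± 7.20, then *Oas1a* with 10.6 ± 7.57, *Oas1b* with 6.59 ± 2.39 and *Oas1g* with 6.19 ± 4.73 CPM per kb. *Oasl1* and *Oas1c* closed the order with 1.78 ± 1.33 and 1.68 ± 0.451 CPM per kb. Only *Oasl2* and *Oas2* were neighbours in this order without overlapping ranges, although *Oas2* exceeded *Oas3* and *Oas3* exceeded *Oas1a* within each of the 3 libraries.

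In the double-knockout libraries *Oasl2* led again with 15.9 ± 2.85 CPM per kb, and *Oas2* followed with 2.59 ± 1.55. *Oas1c* came next with 2.01 ± 0.515, and *Oas1b* was level with it at 2.0 ± 0.153 CPM per kb. *Oas3* had 0.839 ± 0.468, *Oas1a* 0.791 ± 0.257, *Oas1g* 0.300 ± 0.134 and *Oasl1* 0.250 ± 0.356 CPM per kb. *Oas1c* thus stood at place 8 in the first group and at place 3 in the second, at a level that overlapped between them. *Oas2*, *Oas1c* and *Oas1b* could not be ordered by their ranges, nor could *Oas3* and *Oas1a* or *Oas1g* and *Oasl1*.

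**Figure D3:**
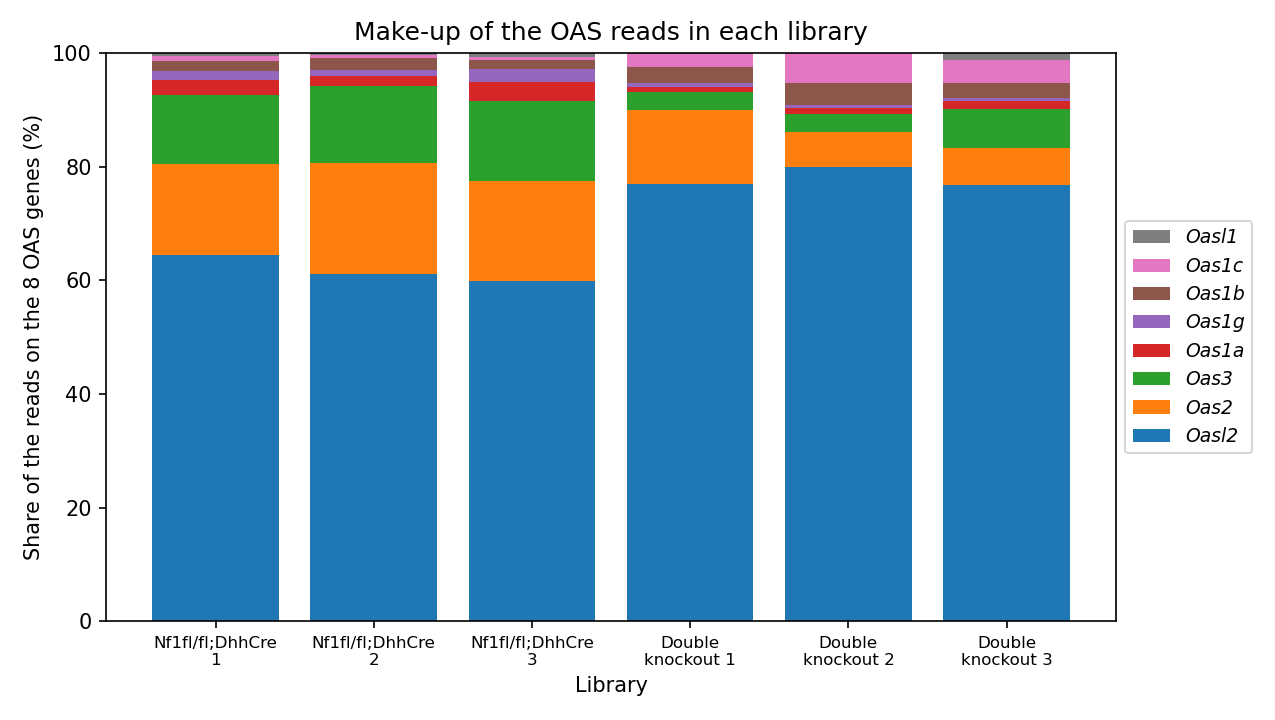
Share of the reads on the 8 OAS genes that each gene took, in percent, with 1 bar per library. *Oasl2* takes 59.9% to 64.4% in Nf1fl/fl;DhhCre and 76.8% to 80.0% in the double-knockout libraries, and *Oas3* takes less in the latter.

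The make-up of the family's reads also differed. *Oasl2* took 64.4%, 61.1% and 59.9% of the reads on the 8 genes in the Nf1fl/fl;DhhCre libraries and 77.0%, 80.0% and 76.8% in the double-knockout libraries. *Oas3* had 19.0, 22.1 and 23.6 reads per 100 reads of *Oasl2* in the first group and 4.22, 4.07 and 8.90 in the second. *Oas2* had 24.8, 32.1 and 29.3 reads per 100 of *Oasl2* against 16.7, 7.52 and 8.54. These ratios do not depend on the scaling of the libraries, and for both genes the groups did not overlap.

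The remaining *Oas1* genes of the cluster were hardly detected. *Oas1d* and *Oas1e* had 0 reads in all 6 libraries, and *Oas1f* had 1, 0 and 4 reads in Nf1fl/fl;DhhCre and 0 in each double-knockout library. *Oas1h* had 17, 24 and 22 reads against 6, 0 and 0. It was called lower at -3.95 on the log2 scale (SE 1.0, limma-voom adjusted p = 0.0346), but entered the fit through the Nf1fl/fl;DhhCre libraries alone, as no double-knockout library reached the minimum. It kept the call in only 1 of the 6 fits on 5 libraries, over which its log2 fold change ran from -5.18 to -3.21. The call was lost in the quasi-likelihood test of edgeR (-3.05, adjusted p = 0.0917).

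The genes that flank the clusters were examined too, beside the background of 5.36% of genes called lower and 8.03% called higher. Of the 5 nearest genes on either side of *Oasl2* and *Oasl1*, all 10 were tested, with 0 called lower and 1 higher, *1500011B03Rik* at 1.05. The largest estimates there were those of *4930515G01Rik* at -1.82 and *Acads*, an enzyme of fatty acid oxidation, at 1.09, and neither was called. Around the *Oas* cluster 8 of the 10 flanking genes were tested, with 0 called lower and 1 higher. This was *Rph3a*, which encodes the synaptic vesicle protein rabphilin, at 2.49 (SE 0.41, limma-voom adjusted p = 0.0127), and *Rita1* followed with 1.4, not called.

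**Figure D4:**
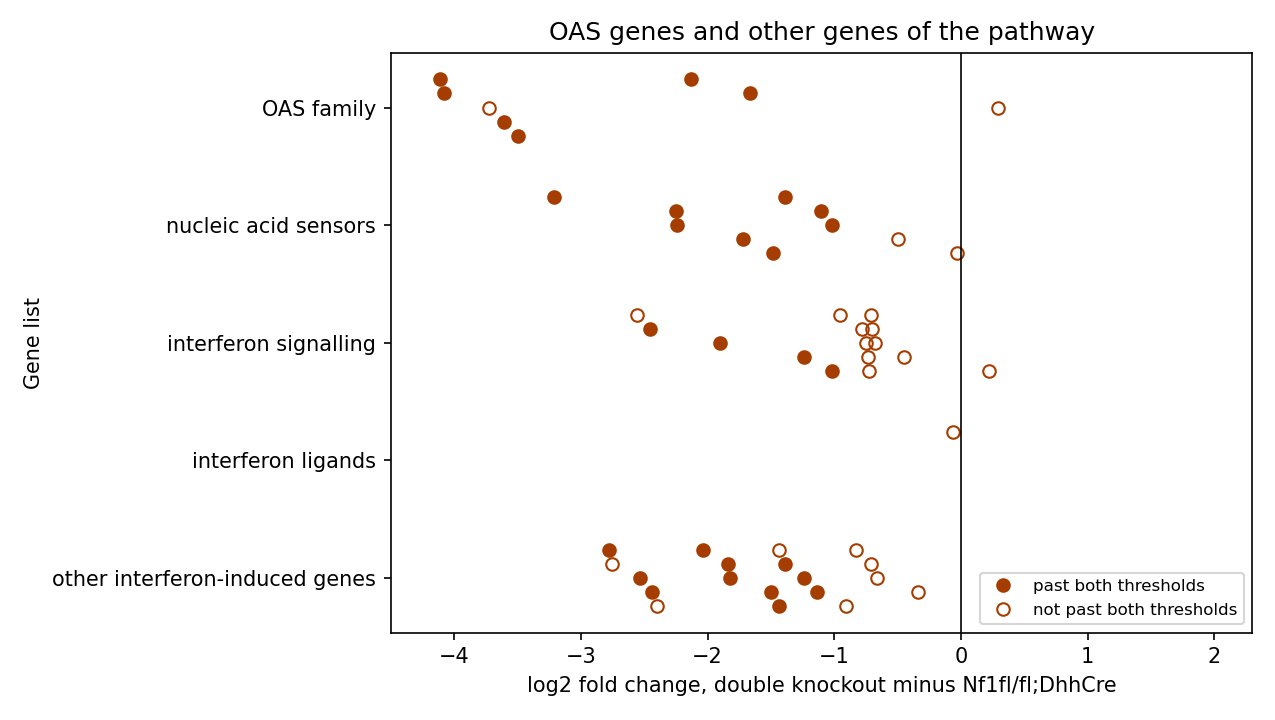
Log2 fold change, double knockout minus Nf1fl/fl;DhhCre, of the OAS genes and of the tested genes of 4 other lists of the pathway, with 1 point per gene and filled points for genes past both thresholds. Filled points lie below -1 in all lists that have any, and the lower ends of the other lists do not reach -4.

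Genes around the synthetases in the antiviral pathway were grouped into 5 lists of 59 genes, of which 48 were tested, and 4 of the lists are described here. The remaining list, of 3 genes, had 0 called in either direction, a median of 0.10 and log2 fold changes from -0.98 to 0.19. In 1 of its genes all double-knockout libraries were below all Nf1fl/fl;DhhCre libraries, and in 1 they were above. Of the 48 tested genes of all 5 lists, 23 were called lower and 0 higher, with a median of -1.12. The lists were chosen with results of these samples known, so the counts are given beside the background of 5.36% and are not independent evidence. The count of 23 fell to 4 without Nf1fl/fl;DhhCre replicate 1, to 5 without double-knockout replicate 2, to 9 without double-knockout replicate 3 and to 15 without double-knockout replicate 1. The share of all genes called lower fell in the same fits, from 5.36% to 1.13%, 2.04%, 2.96% and 3.59%.

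Among 10 sensors of foreign nucleic acid, 8 were called lower with a list median of -1.44, and 1 to 8 were with a library left out. *Zbp1*, a sensor of Z-form nucleic acid, fell from 20.6, 18.6 and 44.1 to 3.19, 2.22 and 2.84 CPM (-3.21 on the log2 scale with SE 0.58, limma-voom adjusted p = 0.0147). *Tmem173*, the adaptor STING, had -2.25 (adjusted p = 0.0175), and *Dhx58*, the RNA helicase LGP2, had -2.24 (adjusted p = 0.0185). Of the 6 fits on 5 libraries, *Tmem173* kept its call in 5, *Zbp1* in 4 and *Dhx58* in 3. *Mavs*, the adaptor of the RNA helicases, and *Adar*, an editor of double-stranded RNA, were at -0.03 and -0.50 and were not called.

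Of 15 tested genes of interferon signalling, 4 were called lower with a list median of -0.75. The count was 0 without Nf1fl/fl;DhhCre replicate 1, double-knockout replicate 2 or double-knockout replicate 3, and 2 without double-knockout replicate 1, in the fits with fewer calls over all genes given above. *Irf8*, a factor of the myeloid lineage, had -2.45 (adjusted p = 0.0229), *Usp18*, an inhibitor of the interferon receptor, -1.91 (adjusted p = 0.0278), and *Irf9* -1.24 (adjusted p = 0.0279), all from limma-voom, and each of these 3 kept its call in 2 of the 6 fits on 5 libraries. Over these fits the log2 fold changes ran from -2.75 to -2.003 for *Irf8*, from -2.11 to -1.45 for *Usp18* and from -1.41 to -0.96 for *Irf9*. The fourth was *Ifngr1*, a receptor chain for interferon gamma, at -1.02 (adjusted p = 0.0197). *Irf9* was at 33.2, 35.2 and 57.2 CPM against 23.0, 16.4 and 13.9 CPM. Its partner *Stat2* gave no call, with -0.95 (SE 0.26, limma-voom adjusted p = 0.0425), short of 2-fold. It was called in DESeq2 (-1.004, adjusted p = 0.0031) and on library size only (-1.03, adjusted p = 0.034). *Irf7*, the interferon-induced amplifier whose translation *Oasl1* restrains, was at 8.18, 11.9 and 31.3 against 2.47, 2.22 and 2.64 CPM and missed the threshold at -2.56 (SE 0.74, limma-voom adjusted p = 0.0510). It was past the threshold in the quasi-likelihood test of edgeR (-2.80, adjusted p = 0.0161) and in DESeq2 (-2.82, adjusted p = 2.1e-06). In limma-voom it was past the threshold on library size only (-2.63, adjusted p = 0.0444). The same held in limma-voom without Nf1fl/fl;DhhCre replicate 3, with a smaller estimate (-1.97, adjusted p = 0.0379).

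The interferons themselves could hardly be measured. Of 10 interferon genes in the tables, 6 had 0 reads in all libraries and 1, *Ifnk*, had enough reads to be tested, with -0.06. Among 19 other interferon-induced genes, 11 were called lower, with a median of -1.43, and 3 to 12 were with a library left out. *Ifi44* had -2.78 (adjusted p = 0.0127), *Trim30a* -2.53 (adjusted p = 0.00865) and *Rtp4* -2.44 (adjusted p = 0.0209), all from limma-voom. *Ifi44* and *Trim30a* kept the call in all 6 fits on 5 libraries and *Rtp4* in 2 of them. *Rsad2*, the antiviral enzyme viperin and a common partner of the OAS genes in the interferon response, was at 18.3, 15.8 and 39 CPM against 26.6, 15.6 and 13.8 CPM, with overlapping groups and a log2 fold change of -0.34 (SE 0.40).

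**Figure D5:**
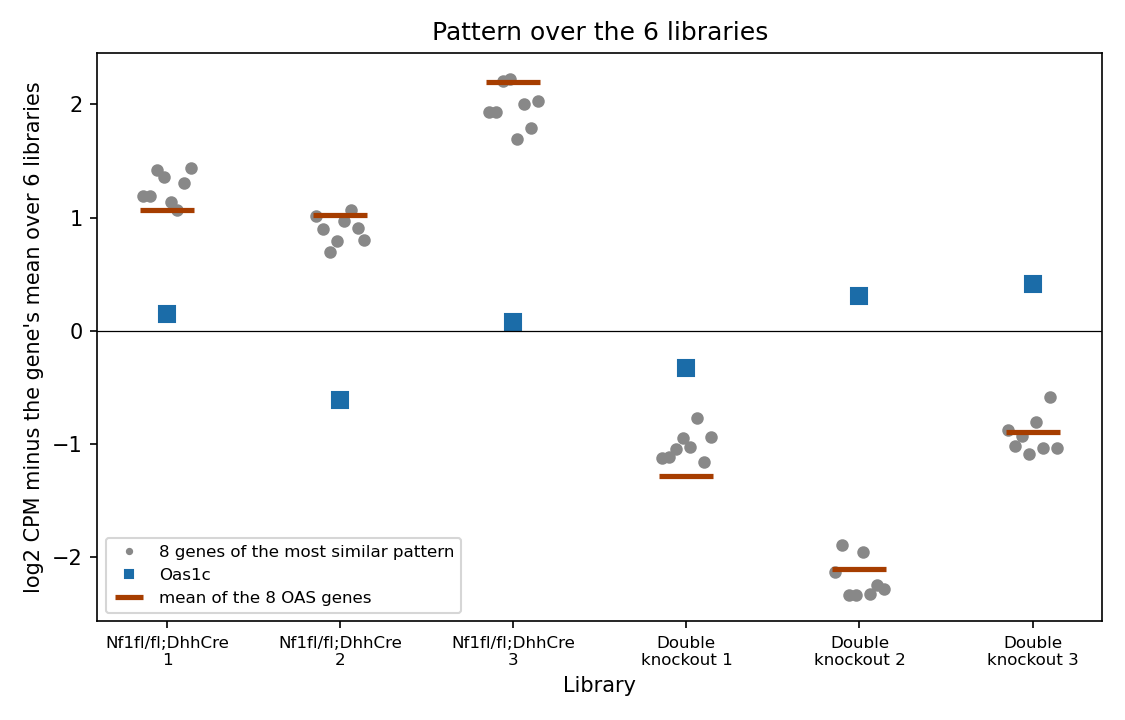
Log2 CPM minus the gene's own mean over the 6 libraries, for the mean of the 8 OAS genes (bars), for the 8 genes nearest to it (grey points) and for *Oas1c* (squares). The grey points follow the bars from library to library because these genes were chosen for that, and *Oas1c* stays near its mean.

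The genes with the pattern most like the family's mean were sought by the root mean square distance of centred log2 CPM over the 6 libraries, among 13631 genes. The nearest was *Fyb*, a leukocyte adaptor, at a distance of 0.137, followed by *Tyrobp* (0.177), the signalling adaptor DAP12, *Laptm5* (0.239), a lysosomal protein of blood cells, and *Fcer1g* (0.240), the shared chain of Fc receptors. *A530099J19Rik*, *Tnfsf13b*, which encodes the cytokine BAFF, *Arhgap30* and *Cd53*, a leukocyte tetraspanin, completed the 8 with distances up to 0.253. The median over all genes compared was 1.55. The family's mean includes *Oasl1*, whose centred value was -4.86 in double-knockout replicate 2, from 0 reads, and 0.80 in replicate 3. It also includes *Oas1g*, which like *Oasl1* passed the filter through the Nf1fl/fl;DhhCre libraries. The order of the nearest genes thus rests in part on few reads, and nothing is read from it. Distances without these genes were not computed. The members themselves lay at 0.436 for *Oas1a*, 0.439 for *Oasl2*, 0.584 for *Oas2*, 0.666 for *Oas3*, 0.732 for *Oas1g*, 0.741 for *Oas1b*, 1.41 for *Oasl1* and 1.66 for *Oas1c*. *Fyb* was at 149, 132 and 251 CPM in Nf1fl/fl;DhhCre and at 30.0, 14.9 and 35.7 CPM in the double-knockout libraries. Like most OAS genes it was highest in replicate 3 of the first group and lowest in replicate 2 of the second. *Fyb* was chosen for its likeness over these libraries, so this match is not a separate result.

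Among markers of immune cells, most of those called were of macrophages, which also had the longest list. The background was 5.36% of genes called lower and 8.03% called higher. Of 13 macrophage markers 10 were called lower and 0 higher, with a median of -2.16, and none was at 0 in all libraries. Their sum was 1749, 1235 and 2358 CPM in Nf1fl/fl;DhhCre and 529, 224 and 441 CPM in the double-knockout libraries. Of 6 dendritic cell markers 2 were called lower, with a median of -1.88 and sums of 201 to 328 CPM against 49.3 to 76.5 CPM. The 8 tested markers of T and NK cells had a similar median of -2.11. Of these, 1 was called lower, *Klrb1c*, which no double-knockout library had at the minimum of the filter. Sums of all 9 listed markers of T and NK cells were 16.3 to 52.7 against 4.16 to 7.49 CPM. Neutrophil, B cell and mast cell lists had 0 called in either direction, with medians of 0.62, 0.11 and -0.75. Of 5 fibroblast markers 3 were called lower, with sums of 6247 to 7140 against 2311 to 3621 CPM, whereas all 6 sensory neuron markers were called higher. The part of these cell types in the OAS values was not tested.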

How the data were processed

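RNA from 6 mice (3 per genotype) was amplified with the NuGEN Ovation kit and prepared with Nextera XT, and the authors aligned paired reads to mm10 with TopHat. The deposited values are raw counts of reads per gene made by the authors with featureCounts. The annotation, the strand setting and how multiply aligned reads were handled are not given in the sources used here. Replicates were numbered in the order of the records. Titles and deposited tables disagree on some mouse numbers within a genotype, so the sequencing run of a library is as labelled only. The p-values set the difference between genotypes against the spread between libraries of the same genotype. Any differences in tissue content, sex or sequencing run between the libraries are part of both.

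A filter on low counts (filterByExpr) came first. It asked for at least 15 reads in all and for a minimum level in as many libraries as the smaller group holds. In the fit on all 6 libraries this was 0.691 CPM, or 10 reads at the median library size, in at least 3 libraries. TMM factors and the limma-voom fit (limma 3.58.1, edgeR 4.0.16, R 4.3.3) followed, with genotype as the only term and Benjamini-Hochberg adjustment. A gene was called at adjusted p below 0.05 and more than 2-fold change. CPM used the TMM factors. Exon lengths and positions came from GENCODE M21. Alternatives changed the test (DESeq2 1.42.0 or the quasi-likelihood test of edgeR), the scaling (library size only, or the size factors of DESeq2), the filter (CPM above 1 in 3 libraries, or any count), the weights (by sample quality), the adjustment of p (none) or the libraries (each left out in turn). Sex as a covariate was added after seeing the data. Steps were tested on simulated data. Figures were drawn with matplotlib 3.10.9.

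The members, gene lists and marker lists were chosen with earlier results of these data known. Named were every member, *Stat2*, *Irf9* and *Irf7*, the 3 called genes of each list with the largest change, the 8 genes of nearest pattern (average log2 CPM of at least 1) and, at each cluster, the 2 flanking genes with the largest change. *1500011B03Rik*, *Klrb1c*, *Mavs*, *Adar*, *Ifngr1*, *Ifnk* and *Rsad2* were named after their values were seen. Some items chosen by these rules are left out.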

Additional observations from a re-analysis of the deposited data

How the results depend on the processing

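The counts of called genes, the 8 OAS genes and the genes named by the fixed rule in the pathway lists were recomputed under each setting, and none of their log2 fold changes changed sign. The flanking genes, the marker lists, the read ratios and the genes named after their values were seen were not recomputed. The number of OAS genes called lower was 6, and it was 6 under edgeR's quasi-likelihood test, DESeq2 size factors, library size only, both other filters and sample quality weights, 7 with DESeq2 and with unadjusted p-values (adding *Oasl1*) and 5 with sex as a covariate (without *Oas1g*), a setting chosen after seeing the data. Leaving out each library gave 3 to 6, with 3 without each double-knockout library in turn (*Oas2*, *Oas3* and *Oasl2*), 4 without Nf1fl/fl;DhhCre replicate 1, 5 without replicate 3 and 6 without replicate 2. In these fits 1.13% to 6.45% of all genes were called lower. The 23 pathway genes called lower became 19 to 28 under the other settings and 4 to 24 with 1 library left out, and 0 were called higher in any fit. Without TMM scaling the median of all genes moved from 0.02 to -0.06. No paired analysis was possible because the replicate numbers follow the order of the records and do not join mice across genotypes. Depth limits *Oasl1* and *Oas1g*, with at most 26 and 13 reads in a double-knockout library. The intervals of 3 counts cover counting error only.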
